A study of Mus musculus with 6 samples.

Results

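The genes described here encode collagen chains, laminin chains and further proteins of the basement membrane and the extracellular matrix. They were taken by name from the deposited filtered table: every collagen alpha chain and laminin chain, together with Nid1, Nid2, Hspg2, Agrn, Fn1, Sparc and Vtn. Of the 13098 genes in that table, 47 were members. These were 32 collagen chains, 9 laminin chains and 6 others. By textbook function, 21 belong to the basement membrane, 18 are interstitial collagens and 8 are other matrix genes. A further 15 matches were found only in the unfiltered table, where Vtn, the vitronectin gene, had 1 count in all libraries together.

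The basement membrane is the thin sheet on which endothelial cells rest. A laminin network and a collagen IV network form it, nidogens and heparan sulphate proteoglycans connect the networks, and endothelial cells make most of these proteins themselves. Interstitial collagens, among them the fibrillar collagens I, III and V and the beaded filament collagen VI, are known mainly as products of fibroblasts, pericytes and smooth muscle cells. Collagen chains are hydroxylated and folded into helical trimers in the endoplasmic reticulum, trimmed outside the cell and cross-linked by lysyl oxidases.

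All cells were cultured endothelial cells from the lungs of C57BL6 mice that lack Ch25h (cholesterol 25-hydroxylase), 3 weeks old and labelled female. The first group received 10 µM reserpine, a blocker of vesicular monoamine transport, for 8 h and then extracellular vesicles of MC38 colorectal tumour cells (TEV, 20 µg per ml, 12 h). The TEV group received the vesicles alone, and the vehicle group received PBS. Each group held 2 libraries, so the fits rest on 3 groups and 6 libraries, and a library of reserpine without vesicles is not analysed here. No wild-type library was analysed here either, so every group, vehicle included, lacks Ch25h. No source used here states whether replicates were separate cultures or animals, so p-values measure only the spread between these libraries.

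Depth was between 22270657 and 81225627 estimated counts per library. All 14 endothelial markers examined were detected, and their summed level was 10591 and 10315 CPM (counts scaled to library size with TMM factors) with TEV plus reserpine, 10767 and 10619 CPM with TEV, and 5273 and 5229 CPM with vehicle. That sum rests mostly on the abundant markers, and 4 of the 14 were lower in TEV than in vehicle. All 47 members passed the filter on low counts and were tested. A gene was called at an edgeR quasi-likelihood adjusted p under 0.05, over 15035 genes, and changes are log2 with their SE. The comparisons of either vesicle group with vehicle share the vehicle libraries, and those that involve TEV share the TEV libraries, so their results are not independent.

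Basement membrane and interstitial genes moved differently under tumour vesicles. With TEV, 15 of 18 interstitial collagens fell and none rose against vehicle, each by at least 2-fold, whereas of 21 basement membrane genes 6 fell (Col15a1, Col18a1, Lama2, Lamb1, Nid1 and Nid2) and 4 rose (among them Col4a5, Col4a6 and Lamc1). Over all genes tested, 49.7% were called in this comparison, 24.6% lower and 25.1% higher. The median log2 change was -3.10 for interstitial members, -0.15 for basement membrane members, and 0.01 for all genes. With TEV plus reserpine, against TEV, 6 basement membrane genes rose (Col15a1, Col18a1, Lama4, Lamb1, Lamc1 and Nid2) and 3 fell (among them Col4a5 and Col4a6), and 7 interstitial collagens rose and none fell. The background there was 31.6% called, 15.7% higher and 16.0% lower. Against vehicle, TEV plus reserpine had 6 basement membrane genes higher and 3 lower, and 14 interstitial collagens lower and none higher. Here 39.1% of all genes were called, 19.1% higher and 19.9% lower. By edgeR's unadjusted p under 0.05, by DESeq2 and by limma-voom, 0 interstitial collagens were likewise higher in either comparison with vehicle. At an unadjusted p under 0.05, 1 interstitial collagen was lower in TEV plus reserpine against TEV, and limma-voom called 0. The edgeR count of 0 interstitial collagens lower in TEV plus reserpine against TEV became 1, Col1a1, with DESeq2 (adjusted p = 0.0395), with no filter on low counts (edgeR adjusted p = 0.0333) and without TEV replicate 1 (0.0162). The 7 that rose became 4 without TEV replicate 1 and 3 without TEV plus reserpine replicate 1. The 6 basement membrane genes higher in TEV plus reserpine against vehicle became 3 without vehicle replicate 1 or without TEV plus reserpine replicate 1.

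When libraries were scaled by their size alone, the median gene changed by -0.11 in TEV against vehicle, and 39.8% of the calls were higher, against 50.5% with TMM. The comparison of TEV plus reserpine with TEV had 59.4% of its calls higher by library size, against 49.5% with TMM.

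**Figure D1:**
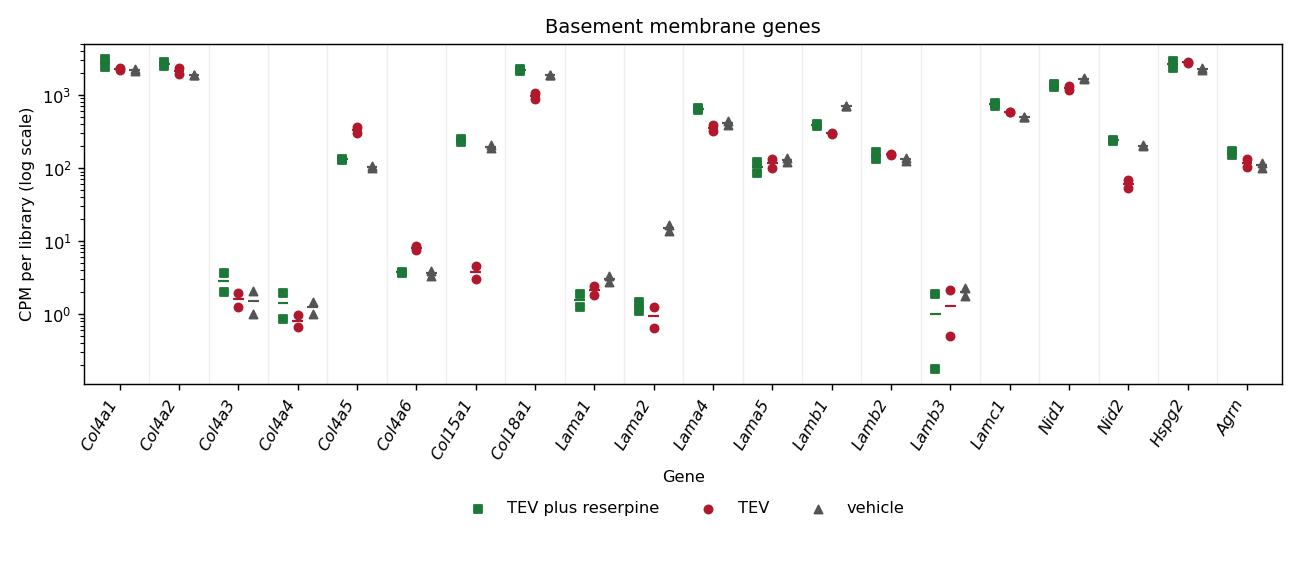
Level of basement membrane genes in each library, as CPM on a log scale, with a short line at the group mean (2 libraries per group). Col15a1 is at 249 and 231 CPM with TEV plus reserpine, 3.00 and 4.52 CPM with TEV, and 186 and 209 CPM with vehicle, and most other genes lie much closer together.

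Collagen IV forms the mesh of the basement membrane, and its trimers of Col4a1 and Col4a2 chains are the form found in nearly all vessels. Col4a1 was at 3081 and 2431 CPM with TEV plus reserpine, 2177 and 2333 CPM with TEV, and 2260 and 2161 CPM with vehicle. The TEV and vehicle libraries overlapped, and both TEV plus reserpine libraries were above them. By edgeR, Col4a1 was called in none of the 3 comparisons. Its log2 change was 0.29 ± 0.11 in TEV plus reserpine against TEV (edgeR adjusted p = 0.0976) and 0.32 ± 0.11 in TEV plus reserpine against vehicle (0.0671). DESeq2 called it higher in both (0.0401 and 0.0284), as did edgeR without TEV plus reserpine replicate 2 (0.0276 and 0.0132), and edgeR with no filter on low counts called it against vehicle (0.0435). In TEV against vehicle the log2 change of Col4a1 was 0.03 ± 0.11, with a 95% interval of -0.24 to 0.30. That value became -0.10 with library size alone. Col4a2 was at 2804 and 2523 CPM with TEV plus reserpine, 1976 and 2348 CPM with TEV, and 1908 and 1911 CPM with vehicle. Relative to vehicle, it was higher by an edgeR call with TEV plus reserpine (0.48 ± 0.10, edgeR adjusted p = 0.00948), and that call ended without TEV plus reserpine replicate 1 (0.0552). In TEV plus reserpine against TEV its change of 0.30 ± 0.10 missed the threshold (edgeR adjusted p = 0.0580) and passed it in 7 alternative settings, among them DESeq2 (0.0136), library size alone (0.0363) and without TEV replicate 2 (0.0180). In TEV against vehicle Col4a2 changed by 0.18 ± 0.10 (edgeR adjusted p = 0.172), and was called without TEV replicate 1 (0.0346).

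Col4a5 and Col4a6, which share trimers in some basement membranes, rose with TEV and were lower with TEV plus reserpine than with TEV. Col4a5, a chain of the kidney glomerular and several epithelial basement membranes, was at 130 and 134 CPM with TEV plus reserpine, 372 and 304 CPM with TEV, and 107 and 101 CPM with vehicle. The TEV libraries stood well above the other 4. Col4a5 rose 3.25-fold in TEV against vehicle (1.70 ± 0.11, edgeR adjusted p = 5.96e-05) and was lower in TEV plus reserpine against TEV (-1.35 ± 0.11, with adjusted p = 0.000698). Relative to vehicle, TEV plus reserpine was called higher by 0.34 ± 0.11 (adjusted p = 0.0443). That last call ended with library size alone (0.0545), with limma-voom (0.0612), and without either vehicle replicate (0.111 and 0.184) or either TEV plus reserpine replicate (0.0934 and 0.142). Col4a6, its partner chain, was at 3.66 and 3.82 CPM with TEV plus reserpine, 8.52 and 7.51 CPM with TEV, and 3.88 and 3.38 CPM with vehicle. The groups were ordered alike: it rose in TEV against vehicle (1.14 ± 0.19, edgeR adjusted p = 0.00272) and was lower in TEV plus reserpine against TEV (-1.10 ± 0.19, with adjusted p = 0.00755). The log2 change of Col4a6 between TEV plus reserpine and vehicle was 0.04 ± 0.19 (adjusted p = 0.880). The remaining collagen IV chains, Col4a3 and Col4a4, stayed between 0.666 and 3.65 CPM in every library and were not called.

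Col4a5 and Col4a6 lie head to head on chromosome X, with 1308 bases between their first exons in the GENCODE M21 annotation of GRCm38. Their upstream sequences are shown because both genes were called in the same directions, and that of Col15a1 because it had the largest change among basement membrane genes. The sequences are those of RefSeq, build GRCm38.p6, whose promoter table had an entry for 34 of the 47 members, and each is the stretch before the gene's start that lies outside annotated exons. Searched on both strands were the GC box (GGGCGG), the CCAAT box (CCAAT), the TATA box (TATAAA) and the AP-1 site (TGANTCA), and capitals mark matches. The Col4a5 stretch is chrX:141475169-141475384 on the plus strand, that of Col4a6 is chrX:141474077-141474326 on the minus strand, and that of Col15a1 is chr4:47207762-47208011 on the plus strand.
Col4a5: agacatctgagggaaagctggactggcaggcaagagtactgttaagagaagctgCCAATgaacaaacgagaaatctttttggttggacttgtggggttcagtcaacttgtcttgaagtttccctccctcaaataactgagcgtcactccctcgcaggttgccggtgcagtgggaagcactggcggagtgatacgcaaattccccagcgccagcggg
Col4a6: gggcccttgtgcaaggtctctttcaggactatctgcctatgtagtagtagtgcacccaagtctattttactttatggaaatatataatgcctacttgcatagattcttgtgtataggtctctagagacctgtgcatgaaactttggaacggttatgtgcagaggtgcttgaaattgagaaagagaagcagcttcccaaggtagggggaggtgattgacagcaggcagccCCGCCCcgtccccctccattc
Col15a1: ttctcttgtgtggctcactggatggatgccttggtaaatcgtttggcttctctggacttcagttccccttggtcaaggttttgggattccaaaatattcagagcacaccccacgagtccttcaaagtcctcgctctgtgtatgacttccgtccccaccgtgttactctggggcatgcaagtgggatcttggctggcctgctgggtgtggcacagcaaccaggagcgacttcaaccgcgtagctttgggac
The 216 bases before Col4a5 held 1 CCAAT box, which 30.52% of all 32851 promoters hold in a window of that length. The 250 bases before Col4a6 held 1 GC box, read on the reverse strand, against 32.74% of all promoters. The 250 bases before Col15a1 held none of the 4 motifs. In 250 bases, 33.85% of promoters held a CCAAT box, 12.37% a TATA box and 6.749% an AP-1 site. A match describes these letters alone and is not evidence of binding.

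The multiplexins Col15a1 and Col18a1 link the basement membrane to its surroundings, and Col18a1 carries the endostatin fragment, an inhibitor of vessel growth. Both fell with TEV and were higher with TEV plus reserpine than with TEV. Col15a1 was 51.0-fold lower in TEV than in vehicle (-5.67 ± 0.19, edgeR adjusted p = 6.43e-06) and 61.9-fold higher in TEV plus reserpine than in TEV (5.95 ± 0.19, adjusted p = 3.71e-05). No library of TEV came near the other groups. Col18a1 was at 2272 and 2166 CPM with TEV plus reserpine, 883 and 1058 CPM with TEV, and 1866 and 1865 CPM with vehicle. It fell in TEV against vehicle (-0.94 ± 0.10, edgeR adjusted p = 0.000361) and rose in TEV plus reserpine against TEV (1.19 ± 0.10, with adjusted p = 0.000691). By edgeR neither was called in TEV plus reserpine against vehicle, where the log2 change was 0.28 ± 0.15 for Col15a1 (adjusted p = 0.184) and 0.25 ± 0.09 for Col18a1 (adjusted p = 0.0779). DESeq2 called Col18a1 higher there (0.0451), and a fit of those 2 groups alone called Col18a1 (0.0200) and Col15a1 (0.0456).

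Laminins are trimers of an alpha, a beta and a gamma chain, and the alpha chain sets which receptors bind. Lama4, with Lama5 the alpha chain of vessel laminins, was at 660 and 617 CPM with TEV plus reserpine, 321 and 396 CPM with TEV, and 385 and 447 CPM with vehicle. The TEV plus reserpine libraries lay above all others, and TEV and vehicle overlapped. Lama4 rose in TEV plus reserpine against TEV (0.83 ± 0.12, edgeR adjusted p = 0.00462) and against vehicle (0.62 ± 0.12, adjusted p = 0.00847), where the call ended without vehicle replicate 1 (0.0531). Lama5 was at 122 and 85.5 CPM with TEV plus reserpine, 100.1 and 135 CPM with TEV, and 138 and 123 CPM with vehicle, and was called in no comparison. Lama2, the alpha chain of muscle and nerve laminin, was at 1.12 and 1.46 CPM with TEV plus reserpine, 0.639 and 1.25 CPM with TEV, and 16.4 and 14.0 CPM with vehicle. Both vesicle groups were low: Lama2 fell in TEV against vehicle (-3.96 ± 0.34, edgeR adjusted p = 0.000175, or -4.57 without TEV replicate 2) and in TEV plus reserpine against vehicle (-3.54 ± 0.34, with adjusted p = 0.000412). Lama1, an alpha chain of early embryonic laminin, stayed between 1.25 and 3.37 CPM. Its largest change, -0.96 ± 0.32 in TEV plus reserpine against vehicle, was not called (edgeR adjusted p = 0.0523). Lama1 was called lower there in 4 alternative settings (0.0321 to 0.0493), among them library size alone (0.0485). Lama3, present only in the unfiltered table, had 13 and 10 counts with TEV plus reserpine, 1 and 10 with TEV, and 32 and 22 with vehicle.

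Lamb1, the beta chain of most embryonic and vessel laminins, was at 407 and 376 CPM with TEV plus reserpine, 305 and 298 CPM with TEV, and 713 and 710 CPM with vehicle. The 3 groups did not overlap. Lamb1 fell in TEV against vehicle (-1.24 ± 0.07, edgeR adjusted p = 4.37e-05), rose in TEV plus reserpine against TEV (0.38 ± 0.07, with adjusted p = 0.0108) and was lower in TEV plus reserpine against vehicle (-0.86 ± 0.07, with adjusted p = 0.000265). Lamb2, the other common beta chain, was at 164 and 134 CPM with TEV plus reserpine, 154 and 156 CPM with TEV, and 139 and 127 CPM with vehicle, and was not called. Lamb3, a beta chain of epithelial laminin, was at 0.179 and 1.87 CPM with TEV plus reserpine, 0.500 and 2.13 CPM with TEV, and 2.25 and 1.78 CPM with vehicle, and was not called.

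Lamc1, the gamma chain shared by most laminins, was at 721 and 781 CPM with TEV plus reserpine, 580 and 592 CPM with TEV, and 498 and 508 CPM with vehicle. The groups did not overlap, and TEV plus reserpine was the highest. Lamc1 rose in TEV plus reserpine against vehicle (0.58 ± 0.07, edgeR adjusted p = 0.00135) and against TEV (0.36 ± 0.07, adjusted p = 0.0126), the call against TEV ending without TEV replicate 1 (0.0614) or TEV plus reserpine replicate 2 (0.0596). In TEV against vehicle it was called higher by 0.22 ± 0.07 (adjusted p = 0.0410), a call that ended in 9 settings, among them library size alone (0.330) and the omission of any of the 4 libraries (0.0689 to 0.169).

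Nidogens connect laminin to collagen IV, and the proteoglycans perlecan (Hspg2) and agrin (Agrn) bind laminin and hold growth factors. Nid1 and Nid2 both fell with TEV, Nid2 by more. Nid1 was at 1293 and 1424 CPM with TEV plus reserpine, 1175 and 1331 CPM with TEV, and 1694 and 1654 CPM with vehicle. Both vesicle groups overlapped below vehicle, with a fall in TEV against vehicle (-0.42 ± 0.09, edgeR adjusted p = 0.00745) and in TEV plus reserpine against vehicle (-0.30 ± 0.09, with adjusted p = 0.0334). The second of those calls ended without TEV plus reserpine replicate 1 (0.188) and without vehicle replicate 1 (0.132) or 2 (0.0947). Nid2 was at 236 and 242 CPM with TEV plus reserpine, 52.9 and 69.7 CPM with TEV, and 200 and 208 CPM with vehicle. It fell in TEV against vehicle (-1.73 ± 0.13, edgeR adjusted p = 0.000113) and rose in TEV plus reserpine against TEV (1.96 ± 0.13, with adjusted p = 0.000474). Against vehicle, TEV plus reserpine gave 0.23 ± 0.13 for Nid2 (adjusted p = 0.200), and an edgeR fit of those 2 groups alone called it higher (0.0386).

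Hspg2 was at 2969 and 2389 CPM with TEV plus reserpine, 2751 and 2867 CPM with TEV, and 2363 and 2221 CPM with vehicle. Hspg2 was not called in TEV against vehicle (0.29 ± 0.11, edgeR adjusted p = 0.0583), while DESeq2 (0.0358) and limma-voom (0.0438) called it. Between TEV plus reserpine and TEV its change was -0.07 ± 0.11, or 0.01 with library size alone. Agrn was at 153 and 173 CPM with TEV plus reserpine, 134 and 105 CPM with TEV, and 101 and 119 CPM with vehicle. It rose in TEV plus reserpine against vehicle (0.57 ± 0.15, edgeR adjusted p = 0.0218), a call that ended without TEV plus reserpine replicate 2 (0.104) or vehicle replicate 1 (0.120). Against TEV the change of Agrn was 0.45 ± 0.15 (edgeR adjusted p = 0.0547). It was called higher there by DESeq2 (0.0114) and limma-voom (0.0436). So did edgeR with library size alone (0.0285), with no filter on low counts (0.0180) and with thinned libraries (0.0403).

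**Figure D2:**
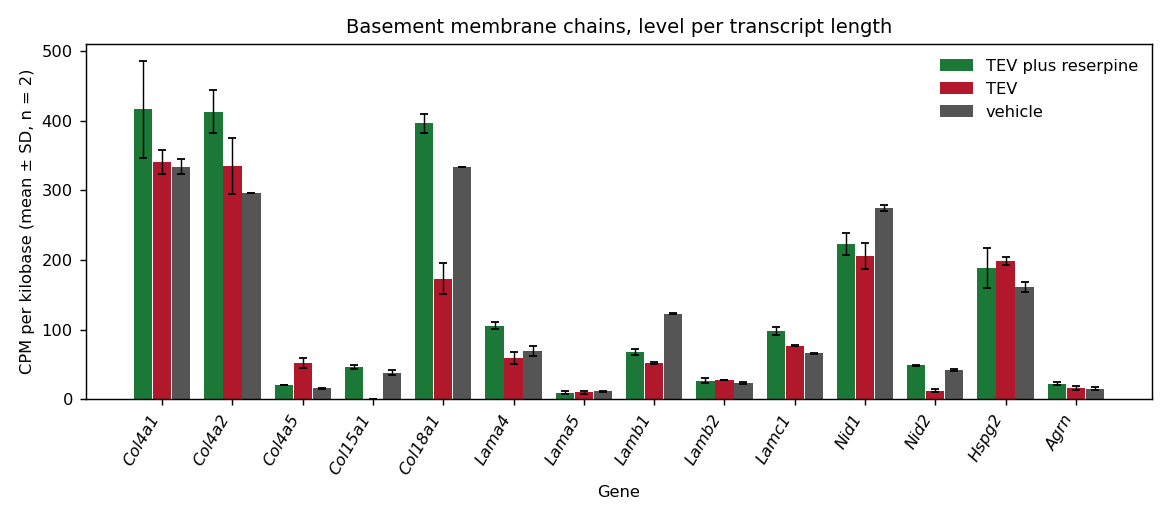
Level per kilobase of the longest annotated transcript for basement membrane genes, as CPM per kilobase (bars, mean; error bars, SD, n = 2 libraries per group). Col4a1, Col4a2 and Col18a1 are the tallest bars with TEV plus reserpine, and the Col15a1 bar with TEV is at 0.727 CPM per kilobase.

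Levels of different genes were set side by side per kilobase of the longest annotated transcript. Col4a1 reached 417 ± 69.6 CPM per kilobase with TEV plus reserpine, 341 ± 16.7 with TEV and 334 ± 10.6 with vehicle (SD, n = 2 each). Col4a2 was at 413 ± 30.8, 335 ± 40.7 and 296 ± 0.272 CPM per kilobase in the same order, within the spread of Col4a1 for both vesicle groups. Among alpha laminin chains Lama4 was highest in level, at 106 ± 4.99 CPM per kilobase with TEV plus reserpine, 59.3 ± 8.79 with TEV and 68.8 ± 7.20 with vehicle. Lama5 was at 9.09 ± 2.24, 10.3 ± 2.16 and 11.5 ± 0.903 CPM per kilobase. Of the beta chains, Lamb1 was at 67.8 ± 3.82 CPM per kilobase with TEV plus reserpine, 52.1 ± 0.894 with TEV and 123 ± 0.306 with vehicle, against 26.5 ± 3.77, 27.5 ± 0.275 and 23.7 ± 1.53 for Lamb2. Lamb1 thus exceeded Lamc1 with vehicle (66.0 ± 0.974 CPM per kilobase) and lay below Lamc1 with TEV plus reserpine (98.6 ± 5.59) and with TEV (76.9 ± 1.07).

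**Figure D3:**
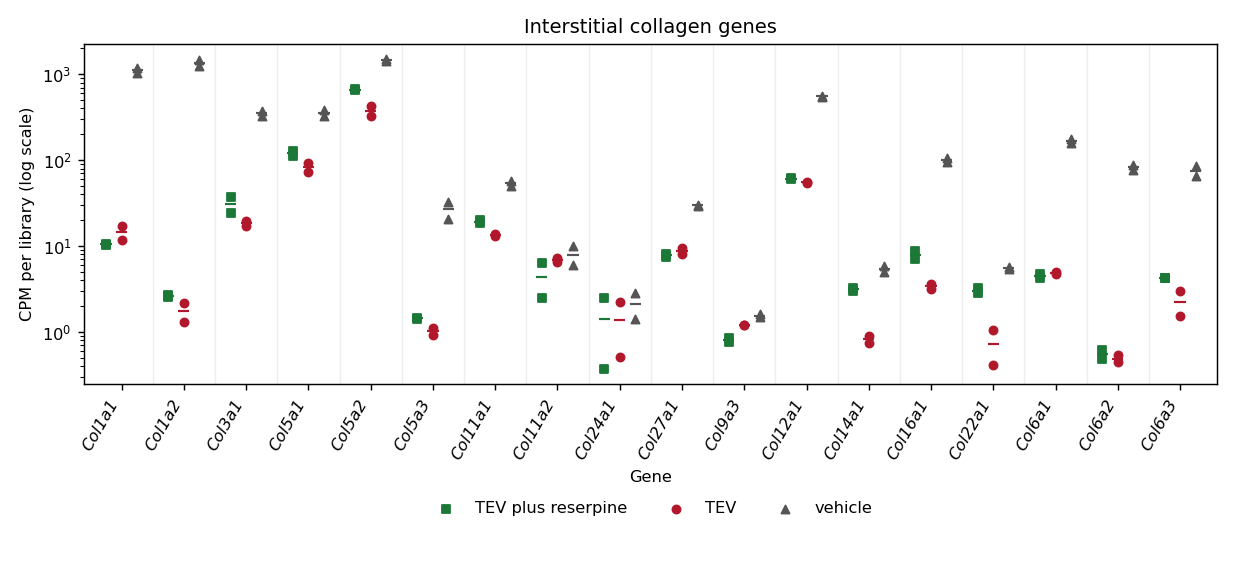
Level of each of the 18 interstitial collagen genes in each library, as CPM on a log scale, with a short line at the group mean (2 libraries per group). For Col1a2 the vesicle libraries lie between 1.30 and 2.68 CPM and the vehicle libraries at 1467 and 1250 CPM.

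Fibrillar collagens carry the tensile strength of connective tissue, and 8 of the 10 in the filtered table fell in TEV against vehicle and in TEV plus reserpine against vehicle. Called lower in those comparisons were 24.6% and 19.9% of all genes tested. Col1a1 and Col1a2, the chains of collagen I, lost nearly all their reads. Col1a1 was at 10.4 and 10.7 CPM with TEV plus reserpine, 11.7 and 17.3 CPM with TEV, and 1186 and 1035 CPM with vehicle. Col1a2 was at 2.68 and 2.58 CPM with TEV plus reserpine, 1.30 and 2.16 CPM with TEV, and 1467 and 1250 CPM with vehicle. Vehicle stood far from both vesicle groups, with a log2 change in TEV against vehicle of -6.25 ± 0.21 for Col1a1 (edgeR adjusted p = 6.39e-06) and -9.53 ± 0.23 for Col1a2 (2.18e-06). The fall in TEV plus reserpine against vehicle was -6.72 ± 0.22 for Col1a1 (8.28e-06) and -9.01 ± 0.23 for Col1a2 (3.55e-06). Neither chain was called in TEV plus reserpine against TEV by edgeR (-0.47 ± 0.19, adjusted p = 0.0980, and 0.52 ± 0.24, adjusted p = 0.146). DESeq2 called Col1a2 higher there (0.0372), as did the fit without TEV replicate 2 (1.02, edgeR adjusted p = 0.0217).

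Col3a1, which co-assembles with collagen I in vessel walls, was at 37.6 and 24.3 CPM with TEV plus reserpine, 19.6 and 17.2 CPM with TEV, and 378 and 329 CPM with vehicle. It fell in TEV against vehicle (-4.27 ± 0.22, edgeR adjusted p = 2.45e-05) and in TEV plus reserpine against vehicle (-3.53 ± 0.21, with adjusted p = 7.87e-05). Relative to TEV, it rose with TEV plus reserpine by 0.75 ± 0.20 (adjusted p = 0.0321), a call that ended without TEV replicate 1 (0.0881) or 2 (0.115) or TEV plus reserpine replicate 1 (0.0880).

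Collagen V and XI chains, which nucleate fibrils and set their width, had smaller changes, apart from Col5a3. Col5a2 was at 675 and 652 CPM with TEV plus reserpine, 330 and 423 CPM with TEV, and 1487 and 1416 CPM with vehicle. The 3 groups did not overlap, and TEV plus reserpine lay between the others: the log2 change was -1.94 ± 0.12 in TEV against vehicle (edgeR adjusted p = 5.25e-05), 0.82 ± 0.12 in TEV plus reserpine against TEV (0.00430) and -1.13 ± 0.12 in TEV plus reserpine against vehicle (0.000653). Col5a1 and Col11a1 were ordered alike, with changes of -2.10 and -2.005 in TEV against vehicle, 0.54 and 0.52 between the vesicle groups, and -1.57 and -1.49 in TEV plus reserpine against vehicle. All 6 of those values were called. The calls in TEV plus reserpine against TEV ended for Col5a1 without TEV replicate 1 (0.128) or TEV plus reserpine replicate 1 (0.138) or 2 (0.0595), and for Col11a1 without TEV replicate 1 (0.0565) or 2 (0.0515) or TEV plus reserpine replicate 1 (0.0670). Col5a3 fell by 4.69 in TEV against vehicle and by 4.20 in TEV plus reserpine against vehicle on the log2 scale. Col27a1, of cartilage, fell by 1.76 and by 1.94 in the same comparisons and, like Col5a3, was not called between the vesicle groups. Col11a2 and Col24a1 were called in no comparison by edgeR on all libraries and stayed at 9.92 CPM or below; Col11a2 was called lower in TEV plus reserpine against vehicle without TEV plus reserpine replicate 1 (0.0272).

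Collagen VI, whose filaments lie between cells and interstitial fibres, fell in all 3 of its chains that the filtered table holds. Of all genes tested, 24.6% were called lower in TEV against vehicle and 19.9% in TEV plus reserpine against vehicle. Col6a2 was at 0.625 and 0.488 CPM with TEV plus reserpine, 0.444 and 0.535 CPM with TEV, and 87.8 and 76.7 CPM with vehicle. Col6a1 was at 4.73 and 4.31 CPM with TEV plus reserpine, 5.0 and 4.75 CPM with TEV, and 175 and 159 CPM with vehicle. For both genes the vesicle groups lay close together and far below vehicle. In TEV against vehicle the log2 change was -7.35 ± 0.17 for Col6a2, -5.10 ± 0.11 for Col6a1 (edgeR adjusted p = 2.18e-06 for each) and -4.98 ± 0.30 for Col6a3 (4.69e-05, or -5.61 without TEV replicate 2). In TEV plus reserpine against vehicle it was -7.23 ± 0.18, -5.21 ± 0.12 and -4.14 ± 0.30. None of the 3 was called in TEV plus reserpine against TEV by edgeR with adjustment, and 1 had an unadjusted p under 0.05. DESeq2 called Col6a3 higher there (0.88, adjusted p = 0.0137), and limma-voom did not (0.84, adjusted p = 0.159).

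Fibril-associated collagens sit on the surface of fibrils, and 4 of the 5 in the filtered table fell in TEV against vehicle. The share called lower there was 24.6% of all genes tested. Col12a1 was at 59.9 and 62.0 CPM with TEV plus reserpine, 54.5 and 55.9 CPM with TEV, and 563 and 544 CPM with vehicle (-3.33 ± 0.08 in TEV against vehicle, edgeR adjusted p = 2.18e-06). Col16a1 was at 7.10 and 8.76 CPM with TEV plus reserpine, 3.19 and 3.62 CPM with TEV, and 94.0 and 107 CPM with vehicle. Its 3 groups were apart, with -4.87 ± 0.15 in TEV against vehicle, 1.22 ± 0.15 in TEV plus reserpine against TEV (edgeR adjusted p = 0.00244) and -3.66 ± 0.15 in TEV plus reserpine against vehicle. Col14a1 was at 3.26 and 3.01 CPM with TEV plus reserpine, 0.750 and 0.904 CPM with TEV, and 5.83 and 4.94 CPM with vehicle. Col22a1, of tissue junctions, was at 3.22 and 2.87 CPM with TEV plus reserpine, 0.416 and 1.04 CPM with TEV, and 5.41 and 5.78 CPM with vehicle. Those low genes also had TEV plus reserpine between the other groups. In TEV plus reserpine against TEV, Col14a1 rose by 1.91 ± 0.25 (adjusted p = 0.00294) and Col22a1 by 2.00 ± 0.41 (adjusted p = 0.0129). The call of Col22a1 ended without TEV plus reserpine replicate 1 (0.0561), and without TEV replicate 2 the value was 2.87. In TEV against vehicle the log2 change was -2.69 for Col14a1 and -2.88 for Col22a1, the second of which was -3.73 without TEV replicate 2. In TEV plus reserpine against vehicle Col22a1 was not called by edgeR on all libraries (-0.88 ± 0.38, adjusted p = 0.114). There, limma-voom (0.0493) and an edgeR fit of those 2 groups alone (0.0206) called it lower. Col14a1 was called lower in that comparison (-0.78 ± 0.23, edgeR adjusted p = 0.0371). That call ended without any filter on low counts (0.0519) and without any of the 4 libraries compared (0.0825 to 0.199). Col9a3 stayed between 0.759 and 1.60 CPM and was not called.

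Most tested markers of other cell types were called lower in TEV against vehicle, but not all. In that comparison 24.6% of all genes tested were called lower and 25.1% higher. Of 12 fibroblast markers 10 could be tested, and 8 were lower and 1, Thy1, higher in TEV against vehicle. Their summed level was 462 and 426 CPM with TEV plus reserpine, 312 and 365 CPM with TEV, and 399 and 378 CPM with vehicle. Without Thy1, left out after its values were seen, it was 53.8 and 50.9 CPM with TEV plus reserpine, 25.7 and 31.8 CPM with TEV, and 300.2 and 287 CPM with vehicle. All 11 testable pericyte and smooth muscle markers of 12 were lower in TEV against vehicle, with a summed level of 943 and 866 CPM with TEV plus reserpine, 783 and 893 CPM with TEV, and 2049 and 2024 CPM with vehicle. With TEV plus reserpine, relative to vehicle, 7 fibroblast markers and 9 pericyte and smooth muscle markers were lower. These were 70% and 81.8% of those tested, against 19.9% of all genes tested. Thy1 was again the 1 fibroblast marker called higher. Relative to TEV, 5 and 4 were higher and none was lower at an adjusted or unadjusted p under 0.05. Over all genes tested, 15.7% were called higher there and 16.0% lower. Tcf21, a fibroblast marker, Cspg4, a pericyte marker, and Msln, a mesothelial marker, had no count in any vesicle library, and Tcf21 was at or below 0.418 CPM with vehicle.

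Of 10 epithelial and mesothelial markers, 5 could be tested. They summed to 1.03 and 1.23 CPM with TEV plus reserpine, 1.36 and 1.59 CPM with TEV, and 23.1 and 20.3 CPM with vehicle. The 4 called lower in TEV against vehicle were mesothelial markers. The 1 epithelial marker tested was at or below 0.441 CPM in every library and was called in no comparison. The 10 macrophage and leukocyte markers summed to 31.0 and 29.97 CPM with TEV plus reserpine, 23.0 and 22.4 CPM with TEV, and 52.6 and 65.7 CPM with vehicle. In TEV against vehicle 6 of them were called lower and 1 higher. Of the 14 endothelial markers, 10 were called higher and 4 lower in the same comparison. Over all genes tested, 25.1% were called higher in it and 24.6% lower. The 4 were Vwf, Cldn5, Kdr and Tek, with log2 changes of -3.02, -2.93, -1.92 and -0.31. In TEV plus reserpine against vehicle 11 endothelial markers were called higher and 1, Vwf, lower, where 19.1% and 19.9% of all genes tested were. Whether other cell types had a part in the level of the interstitial collagens was not tested, and in bulk RNA fewer cells of a type and less RNA per cell cannot be told apart.

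**Figure D4:**
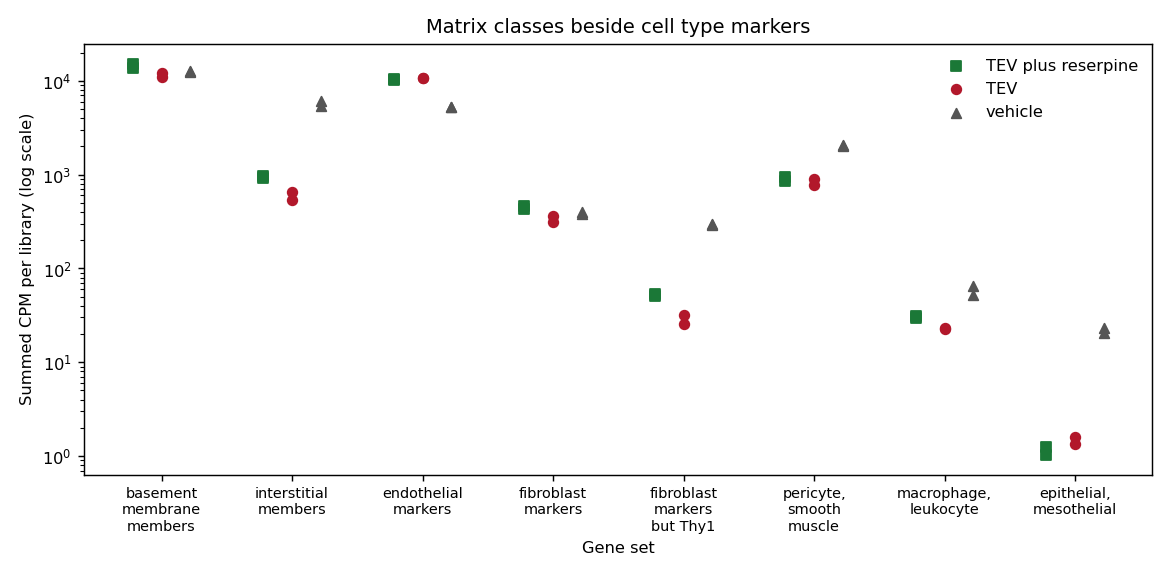
Summed CPM per library, on a log scale, of the basement membrane members, the interstitial members and each list of cell type markers (2 libraries per group). The interstitial sum is 975 and 919 CPM with TEV plus reserpine, 534 and 655 CPM with TEV, and 6037 and 5444 CPM with vehicle, and the marker sums of other cell types are lower in both vesicle groups than in vehicle, except that fibroblast markers with Thy1 counted are higher with TEV plus reserpine.

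Summed over the members, the interstitial level was 947 ± 39.9 CPM with TEV plus reserpine, 594 ± 85.3 CPM with TEV and 5740 ± 420 CPM with vehicle (SD, n = 2 each). The basement membrane sum was 14514 ± 1094 CPM with TEV plus reserpine, 11579 ± 705 CPM with TEV and 12499 ± 142 CPM with vehicle. Counted per kilobase, interstitial chains made up 9.12% and 9.65% of the collagen level with TEV plus reserpine, 8.03% and 8.76% with TEV, and 47.6% and 45.2% with vehicle. Basement membrane chains made up 89.1% and 88.4% with TEV plus reserpine, 90.0% and 89.5% with TEV, and 50.4% and 52.7% with vehicle.

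The 8 other matrix genes included the most abundant member. Fn1, encoding fibronectin, was at 18265 and 16609 CPM with TEV plus reserpine, 15676 and 17047 CPM with TEV, and 14792 and 14035 CPM with vehicle. Per kilobase Fn1 was at 2097 ± 141 CPM with TEV plus reserpine, 1968 ± 117 with TEV and 1733 ± 64.3 with vehicle (SD, n = 2 each). It rose in TEV plus reserpine against vehicle (0.27 ± 0.07, edgeR adjusted p = 0.0235), a call that ended with library size alone (0.0565) and without TEV plus reserpine replicate 1 (0.102) or vehicle replicate 2 (0.100). In TEV against vehicle Fn1 changed by 0.18 ± 0.07 and was not called (edgeR adjusted p = 0.0729), and without TEV replicate 1 the change was 0.26. The libraries of the vesicle groups overlapped for Fn1, and edgeR did not call it between them. Sparc, which encodes a collagen-binding glycoprotein, was at 2696 and 2593 CPM with TEV plus reserpine, 1765 and 1945 CPM with TEV, and 2369 and 2264 CPM with vehicle. The groups did not overlap, and TEV was lowest. In TEV plus reserpine against vehicle Sparc was not called (0.19 ± 0.07, edgeR adjusted p = 0.0813). An edgeR fit of those 2 groups alone called it higher (0.0460). Sparc fell in TEV against vehicle (-0.32 ± 0.07, edgeR adjusted p = 0.0108), a call that ended without TEV replicate 1 (0.0594) or vehicle replicate 1 (0.0586), and rose in TEV plus reserpine against TEV (0.51 ± 0.07, with adjusted p = 0.00414).

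Of the other collagens, Col13a1 and Col23a1, membrane-spanning collagens, fell with TEV. Col13a1 was at 5.90 and 4.36 CPM with TEV plus reserpine, 0.833 and 1.08 CPM with TEV, and 5.85 and 6.06 CPM with vehicle. TEV was apart from both other groups, with -2.62 ± 0.26 in TEV against vehicle (edgeR adjusted p = 0.000337) and 2.40 ± 0.26 in TEV plus reserpine against TEV (0.00165). Col23a1 was at 42.6 and 43.0 CPM with TEV plus reserpine, 22.4 and 20.0 CPM with TEV, and 75.8 and 83.0 CPM with vehicle. Its change was -1.91 ± 0.10 in TEV against vehicle (edgeR adjusted p = 2.82e-05), 1.02 ± 0.10 in TEV plus reserpine against TEV (0.00119) and -0.89 ± 0.10 in TEV plus reserpine against vehicle (0.000776). Col7a1, of the anchoring fibrils of skin, was at 12.1 and 8.44 CPM with TEV plus reserpine, 22.3 and 18.1 CPM with TEV, and 13.0 and 11.7 CPM with vehicle. Col7a1 was higher in TEV than in both other groups, like Col4a5. It rose in TEV against vehicle (0.70 ± 0.20, edgeR adjusted p = 0.0248), which ended without TEV replicate 1 (0.107) or vehicle replicate 1 (0.0654) or 2 (0.110). It was lower in TEV plus reserpine against TEV (-0.98 ± 0.20, with adjusted p = 0.0138), which ended without TEV replicate 1 (0.0696) or TEV plus reserpine replicate 2 (0.0585).

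Col8a1, a short-chain collagen of vessel walls, was at 83.5 and 82.3 CPM with TEV plus reserpine, 61.9 and 64.2 CPM with TEV, and 102 and 105 CPM with vehicle. It fell in TEV against vehicle (-0.72 ± 0.08, edgeR adjusted p = 0.000421), rose in TEV plus reserpine against TEV (0.39 ± 0.08, with adjusted p = 0.0107) and was lower in TEV plus reserpine against vehicle (-0.32 ± 0.08, with adjusted p = 0.0156). The second call ended without TEV replicate 1 (0.0557), and the third without any of the 4 libraries compared (0.0680 to 0.0982). Col28a1 was at 0.447 and 0.718 CPM with TEV plus reserpine, 0.361 and 0.458 CPM with TEV, and 8.38 and 7.76 CPM with vehicle, and fell by 4.27 in TEV against vehicle and by 3.76 in TEV plus reserpine against vehicle on the log2 scale. Col10a1, known from growth plate cartilage, had 1 and 0 counts with TEV plus reserpine, 0 and 4 with TEV, and 64 and 43 with vehicle. Its level in TEV plus reserpine was 85.3-fold lower than in vehicle by the ratio of counts, with a 95% counting interval of 15.0 to 3400. Col10a1 was called lower in TEV against vehicle (edgeR adjusted p = 0.00257), and its fitted change, -5.38 ± 0.87, was -8.62 without TEV replicate 2.

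**Figure D5:**
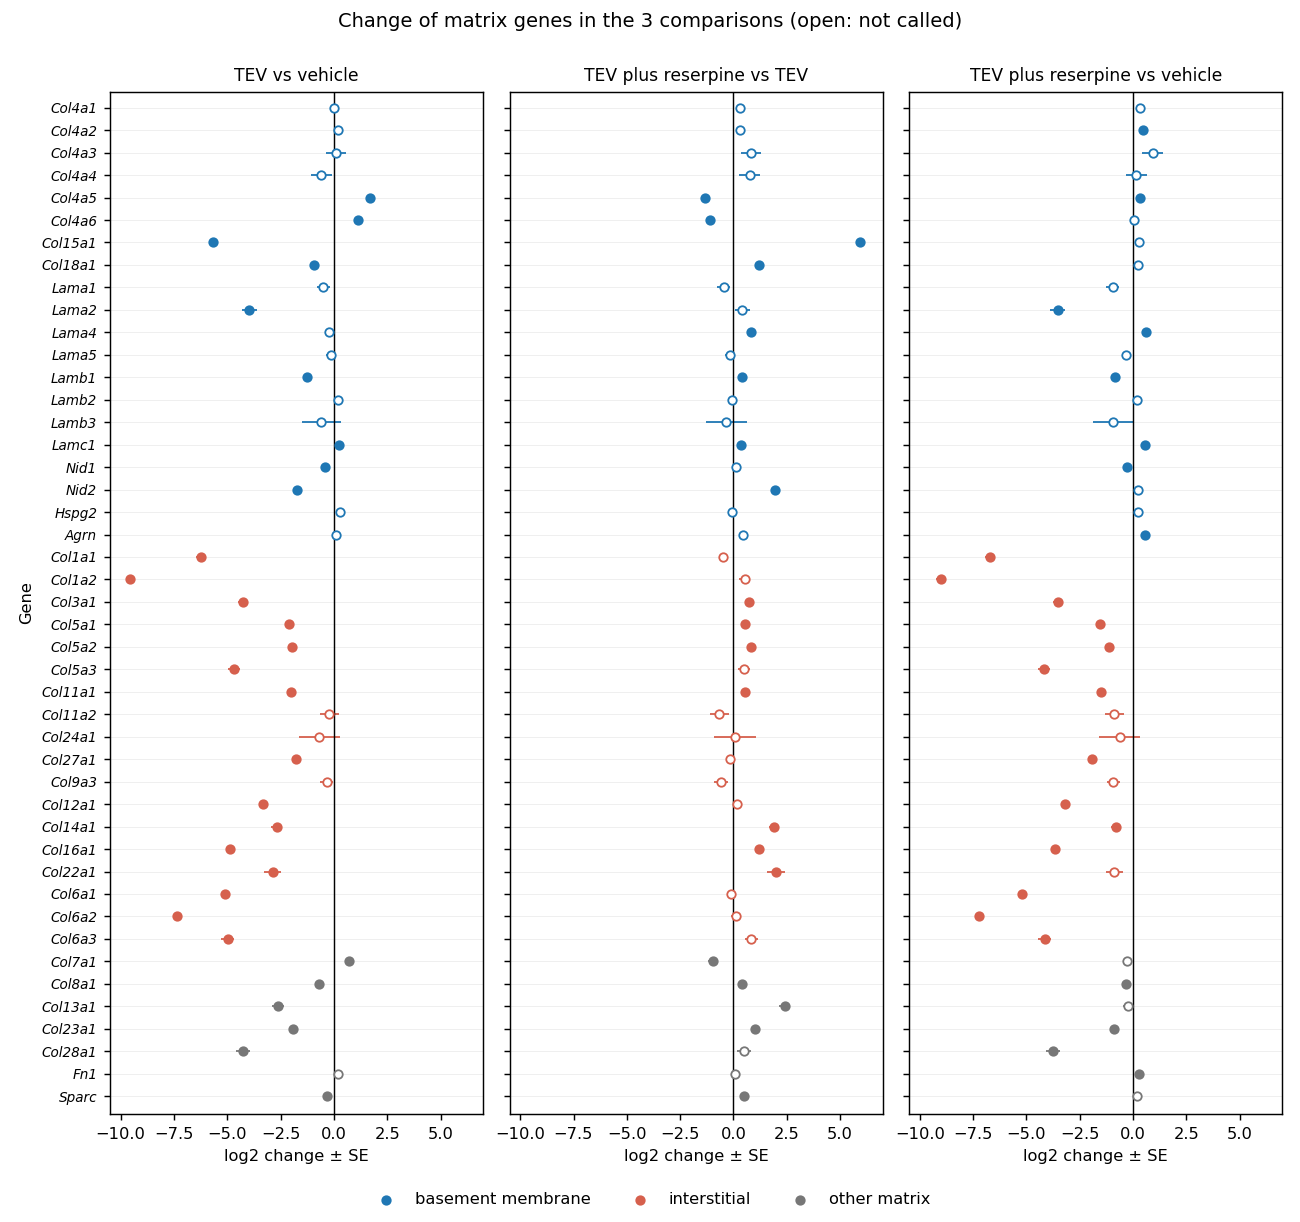
Log2 change ± SE of members in the 3 comparisons, named above each panel, by class, with filled points for edgeR calls (adjusted p under 0.05) and open points for the rest; Col10a1, with 1 count in TEV plus reserpine, is left out. Interstitial points lie left of 0 in both comparisons with vehicle, down to -9.53, while Col15a1 has the highest value between the vesicle groups, 5.95.

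Enzymes that modify, fold, trim and cross-link collagen were examined beside the chains. Of 31 such genes, 15 fell and 5 rose with TEV relative to vehicle, 9 rose and 5 fell with TEV plus reserpine relative to TEV, and 10 fell and 4 rose with TEV plus reserpine relative to vehicle. The share of these genes called was 64.5%, 45.2% and 45.2% in that order, against 49.7%, 31.6% and 39.1% of all genes tested. Called lower were 48.4%, 16.1% and 32.3% of these genes, against 24.6%, 16.0% and 19.9% of all genes tested. The share of all genes called higher was 25.1%, 15.7% and 19.1%. The median log2 changes of the 31 genes were -0.32, 0.05 and -0.20. Largest in TEV against vehicle was the fall of Loxl1, a lysyl oxidase of elastic fibres, to 0.528 ± 0.315 CPM with TEV, against 134 ± 8.01 CPM with vehicle, and it was at 0.555 ± 0.0270 CPM with TEV plus reserpine (SD, n = 2 each). The log2 change of Loxl1 was -7.82 in TEV against vehicle (edgeR adjusted p = 6.43e-06), or -8.76 without TEV replicate 2. Adamts2 and Adamts14, proteases that remove the amino-terminal propeptide of fibrillar procollagens, changed by -4.95 and -3.65 on the log2 scale in that comparison, and by -4.64 and -3.69 in TEV plus reserpine against vehicle. Pcolce, which enhances removal of the carboxy-terminal propeptide, changed by -3.97 and -3.51, and all 6 values were called.

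Other enzymes differed between the vesicle groups. Lox, the classical lysyl oxidase of fibrillar collagen, was at 56.4 ± 3.70 CPM with TEV plus reserpine, 23.2 ± 2.36 CPM with TEV and 193 ± 9.94 CPM with vehicle, and rose in TEV plus reserpine against TEV (1.28 ± 0.11, edgeR adjusted p = 0.000744). Pxdn, the peroxidase that forms sulfilimine cross-links in collagen IV, was at 229 ± 9.43 CPM with TEV plus reserpine, 89.0 ± 27.1 CPM with TEV and 316 ± 26.7 CPM with vehicle. Pxdn was lower in TEV than in vehicle (-1.83 ± 0.20, edgeR adjusted p = 0.000456) and rose in TEV plus reserpine against TEV (1.36 ± 0.19, with adjusted p = 0.00397). Loxl4, another lysyl oxidase, was at 42.0 ± 0.629 CPM with TEV plus reserpine, 412 ± 112 CPM with TEV and 36.4 ± 2.20 CPM with vehicle. P3h2, a prolyl 3-hydroxylase that acts on collagen IV, was at 10.8 ± 2.30 CPM with TEV plus reserpine, 43.8 ± 18.8 CPM with TEV and 10.3 ± 0.159 CPM with vehicle (SD, n = 2 each). Loxl4 rose by 3.50 in TEV against vehicle (edgeR adjusted p = 3.18e-05) and fell by 3.29 in TEV plus reserpine against TEV (0.000300). P3h2 rose by 2.08 (0.00164) and fell by 2.02 (0.00489) in the same comparisons.

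Among 18 matrix receptors, not all of them for collagen or laminin, 13 fell and 3 rose with TEV relative to vehicle. With TEV plus reserpine, 6 rose and 2 fell relative to TEV, and 8 fell and 3 rose relative to vehicle. In that order, 88.9%, 44.4% and 61.1% of the receptors were called, against 49.7%, 31.6% and 39.1% of all genes tested, and the median log2 changes were -0.64, 0.29 and -0.27. Called lower were 72.2%, 11.1% and 44.4% of the receptors, against 24.6%, 16.0% and 19.9% of all genes tested. The share of all genes called higher was 25.1%, 15.7% and 19.1%. Ddr2, a receptor kinase for fibrillar collagen, was at 29.8 ± 6.19 CPM with TEV plus reserpine, 32.0 ± 2.09 CPM with TEV and 322 ± 26.1 CPM with vehicle. Itga11, an integrin subunit that binds collagen I, was at 0.577 ± 0.00460 CPM with TEV plus reserpine, 0.712 ± 0.182 CPM with TEV and 15.6 ± 5.29 CPM with vehicle. Both were called lower in TEV against vehicle (-3.33 ± 0.15 for Ddr2 and -4.42 ± 0.33 for Itga11, edgeR adjusted p = 1.77e-05 and 0.000103). Itgb5, a partner of the alpha v integrin subunit, was at 7.04 ± 0.231 CPM with TEV plus reserpine, 2.63 ± 0.170 CPM with TEV and 126 ± 11.5 CPM with vehicle, the lowest value being in TEV.

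Itga6, an integrin subunit that binds laminin, was at 484 ± 12.8 CPM with TEV plus reserpine, 207 ± 47.0 CPM with TEV and 378 ± 11.2 CPM with vehicle. It fell in TEV against vehicle (-0.87 ± 0.15, edgeR adjusted p = 0.00302) and rose in TEV plus reserpine against TEV (1.22 ± 0.15, with adjusted p = 0.00222). Itgb4, its partner in hemidesmosomes, was at 11.0 ± 0.843 CPM with TEV plus reserpine, 4.27 ± 0.734 CPM with TEV and 13.3 ± 0.842 CPM with vehicle. Itga2, a collagen-binding subunit, was at 63.6 ± 10.2 CPM with TEV plus reserpine, 22.1 ± 2.04 CPM with TEV and 54.5 ± 11.8 CPM with vehicle. In TEV plus reserpine against TEV, Itgb4 rose by 1.36 ± 0.18 (edgeR adjusted p = 0.00290) and Itga2 by 1.53 ± 0.18 (adjusted p = 0.00218). Bcam, a receptor of the Lama5 chain, was at 83.1 ± 6.38 CPM with TEV plus reserpine, 75.6 ± 2.76 CPM with TEV and 12.6 ± 2.23 CPM with vehicle, and rose in both comparisons with vehicle (2.58 ± 0.14 in TEV and 2.71 ± 0.14 in TEV plus reserpine, edgeR adjusted p = 2.96e-05 and 5.24e-05). Itga7, a laminin-binding subunit of muscle, was called lower in TEV against vehicle (-4.57 ± 1.43, adjusted p = 0.0350), with no count in replicate 1 of both vesicle groups. That call ended with DESeq2 (0.241) and without TEV replicate 1 (0.0953) or vehicle replicate 1 (0.0775) or 2 (0.0825).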

How the data were processed

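Gene expression was measured by polyA RNA sequencing (75 bp single-end reads). The tools named in the submitters' processing notes are kallisto 0.45.0, R 4.0.0, limma and edgeR. The authors deposited estimated counts per gene symbol in a raw and a filtered table, the filtered one holding genes above 1 CPM in at least 2 libraries with the same values. Those notes give the build as GRCh38, while the symbols are those of mouse. No source used here gives the strand, so overlapping and antisense genes are not told apart. Chains of a family can share reads.

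Raw estimated counts were rounded, filtered with filterByExpr (15035 genes) and TMM-scaled. 1 edgeR quasi-likelihood model of 6 libraries (3 residual degrees of freedom) gave the 3 comparisons, with Benjamini-Hochberg adjustment over all genes tested. SEs and 95% intervals come from that fit; counting intervals cover counting error only. The fits ran in R 4.3.3 with DESeq2 1.42.0, edgeR 4.0.16 and limma 3.58.1, and were tested on simulated data. A count of 3 corresponded to 0.0369 to 0.135 CPM. Per-kilobase levels used the longest GENCODE M21 transcript of each symbol. The series text can be read as reserpine for all cells; sample labels were followed. Alternatives were other scalings, filters, tests, depth, a replicate block and leaving out each library.

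The members and lists were chosen with earlier results of these data known. By the naming rule, every member may be named, with values per library for 17 core members and, in each comparison and class, the 4 called members with the largest change. Of the enzyme and receptor lists the rule names the 4 called members with the largest change in a comparison and up to 2 uncalled. Lox, Itga3, Thy1, Tcf21, Cspg4, Msln, Vwf, Cldn5, Kdr and Tek, outside the rule, were named after their values were seen. Values per library are also given for members beyond the rule, among them Col4a6, Col12a1, Lamb2 and Lamb3. The values of 1 member, counted in the totals, are not reported here and not drawn. Uncalled members whose sign changed between settings are given as CPM alone, except Col4a1, Hspg2 and Col4a6.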

Additional observations from a re-analysis of the deposited data

How the results depend on the processing

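Of 139 fitted member values, 80 were called, 61 of these kept their call in the 13 alternative settings run for each, 19 lost it in at least 1, and a setting lost between 0 and 11 calls and gained between 0 and 9. No setting reversed the sign of a called member. Interstitial collagens lower in TEV plus reserpine against TEV numbered 1 without a filter on low counts and with DESeq2, against 0 in the main fit. Leaving out 1 library at a time, interstitial collagens higher in that comparison numbered 3 to 7, those lower 0 to 1, and all genes called 2124 to 4315; basement membrane members higher in TEV plus reserpine against vehicle numbered 3 to 5, and all genes called 3572 to 4264. The cause was not tested. Uncalled values changed sign for Col4a1 in TEV against vehicle (-0.096 with library size alone, and -0.022 to 0.098 over the fits without 1 library, negative without vehicle replicate 2, at -0.0058, and without TEV replicate 2). They did so for Hspg2 in TEV plus reserpine against TEV (0.0095 with library size alone, and -0.23 to 0.081, positive without TEV plus reserpine replicate 2). For Col4a6 in TEV plus reserpine against vehicle the values were -0.0032 with library size alone and -0.052 to 0.15, negative without vehicle replicate 2.

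By the replicate numbers of the sample titles, deviations from the group means correlated little over 15035 genes. The correlation was -0.0418 between TEV plus reserpine and TEV, 0.0237 between TEV plus reserpine and vehicle, and 0.0189 between TEV and vehicle. The deposited columns of both vesicle groups carry other numbers than the titles. Pairing with vehicle by those column numbers was not tested, and the replicate block follows the titles. With the replicate block, genes called numbered 6864 in TEV against vehicle, 3840 in TEV plus reserpine against TEV and 5094 in TEV plus reserpine against vehicle. In the same comparisons 3, 6 and 5 basement membrane members were higher and 6, 3 and 3 lower, and 0, 6 and 0 interstitial members were higher and 15, 0 and 13 lower. The block ended 4 member calls: Lamc1 in TEV against vehicle (edgeR adjusted p = 0.0681), Col5a1 in TEV plus reserpine against TEV (0.0545), and Col14a1 (0.0659) and Col4a5 (0.0534) in TEV plus reserpine against vehicle.

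With 2 libraries a group, Lamb3 and Col24a1, under 3 CPM in every library, had SEs near 1 on the log2 scale, and differences of that size were not detectable. Depth differed between libraries by more than 3-fold, and thinning all to the smallest changed no count of member calls by over 1.5 times.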

Other observations

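Of the 15 matches found only in the unfiltered table, Lamc3, a laminin gamma chain, had the most reads, and most of them lay in 1 library. It had 12 and 18 counts with TEV plus reserpine, 38 and 53 with TEV, and 308 and 24 with vehicle. Col2a1, the cartilage collagen, had 6 and 45 counts with TEV plus reserpine, 17 and 34 with TEV, and 11 and 2 with vehicle. Col20a1 had 16 and 11 counts with TEV plus reserpine, 6 and 9 with TEV, and 57 and 26 with vehicle. Fold changes of these genes, which were picked after their counts were seen, are not given.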
